A study of Mus musculus with 4 samples.

Results

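Large peritoneal macrophages (LPMs) are the resident macrophages of the mouse peritoneal cavity, and the genes described here are 49 that copy DNA in S phase. They were chosen by function, with earlier results of these data known: 17 genes of the replicative helicase and of origins, 8 of DNA polymerases and primase, 9 of the sliding clamp, its loader and the single-strand binding protein RPA, 5 of nucleotide synthesis, 5 of repair and strand completion, and 5 that copy chromatin behind the fork. All 49 were among the 18364 genes of the expression table, and all 49 were tested.

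Bulk RNA-seq was made from sorted LPMs of 8-week-old C57BL/6 mice, 2 libraries labelled wild type (WT) and 2 labelled Rxra-/- (Rxra-KO). *Rxra* encodes a nuclear receptor, and the comparison asks what LPMs express when it is deleted. In the methods of the study the deletion is made in *Rxra* fl/fl mice by a Cre expressed from the lysozyme M locus (*Lyz2*), which is active in myeloid cells in general and not in LPMs alone, and the controls are littermates with the same floxed alleles and no Cre. The labels do not say whether the 2 libraries of a group came from separate animals, so the spread between these samples may be technical. The limma p-values rest mostly on a spread pooled over genes of like level (226.6 prior degrees of freedom). The spread of each gene itself adds little (2 residual degrees of freedom).

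The values are counts scaled to a common library size (CPM), and the whole reads behind them could be recovered, at 629030 to 1047021 reads per library. Each read was worth 0.993 to 1.51 on the scale of the values, so that *Mcm2* at 30.9 in Rxra-KO replicate 1, for example, rested on 20 reads. *Rxra* itself went against the labels: it had 20 and 28 reads in WT replicates 1 and 2 and 33 and 77 in Rxra-KO replicates 1 and 2 (log2 fold change 0.99, limma adjusted p = 0.183). A count over the whole gene does not separate the floxed exons from the others, so it is no direct check of the deletion, and the groups are called here the libraries labelled WT and labelled Rxra-KO. *Lyz2*, the locus that carries the Cre, was lower in the libraries labelled Rxra-KO (log2 fold change −1.03, limma adjusted p = 0.00163). Of 8 LPM markers, 5 were called lower (*Gata6*, *Icam2*, *Itgam*, *Lyz2* and *Emr1*, the older symbol of the F4/80 gene *Adgre1*), and none was at 0. *Timd4* was lower (log2 fold change −0.80) and *Csf1r* (0.36) and *Cd68* (0.22) were higher, each without a call. The summed value of the 8 was 19553 to 21510 in the libraries labelled WT and 10600 to 11167 in those labelled Rxra-KO. *Lyz2* held most of it, with 14263 and 11591 in WT and 6386 and 6230 in Rxra-KO replicates 1 and 2. Since the Cre sits in this locus, its effect on *Lyz2* and a change of the cells cannot be told apart. The same limit holds for the summed value and for *Lyz2* among the 5 called markers. Of 6 markers of small peritoneal macrophages and monocytes, 5 were called higher (*Retnla*, *Mrc1*, *Ccr2*, *Cd209a* and *Irf4*), with a summed value of 118 to 363 against 3102 to 4543, while *Ly6c2* had 0 to 5 reads in each library. The part of these markers in the results below was not tested.

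A cell copies its genome once per division. In G1 the origin recognition complex, with Cdc6 and Cdt1, loads the ring-shaped Mcm2 to Mcm7 helicase on DNA, and in S phase Cdc45 and the GINS complex turn the ring into an active helicase; primase and the polymerases then copy both strands, the clamp PCNA holds the polymerases on DNA, and CAF-1, Dnmt1 and Uhrf1 rebuild chromatin and DNA methylation on the copies. Many of these genes are switched on together before S phase by E2F factors. Resident macrophages such as LPMs renew themselves locally by slow division, so only a small share of them is in S phase at any time. In bulk RNA, fewer cells in S phase and less RNA per cell cannot be told apart.

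Promoters of ring genes are shown because *Mcm2*, *Mcm3* and *Mcm5* passed the test below, with lower values in the libraries labelled Rxra-KO, and the other ring genes, *Mcm6* among them, did not. RefSeq windows (GRCm38.p6) of the 250 bases before the start site were found for 40 of the 49 genes. Capitals mark an E2F site (written as TTTCCCGC, TTTCGCGC, TTTGCCGC or TTTGGCGC), a CCAAT box (CCAAT) or a CHR element (TTTGAA), each searched on both strands, so that ATTGG is a CCAAT box on the other strand and neighbouring E2F sites may overlap.
Mcm2, chr6:88898781-88899030, minus strand: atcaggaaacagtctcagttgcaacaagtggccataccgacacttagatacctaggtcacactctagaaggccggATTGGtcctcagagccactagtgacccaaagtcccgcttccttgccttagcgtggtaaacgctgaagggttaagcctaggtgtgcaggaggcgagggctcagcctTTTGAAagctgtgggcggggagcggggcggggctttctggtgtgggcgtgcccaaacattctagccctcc
Mcm3, chr1:20820313-20820562, minus strand: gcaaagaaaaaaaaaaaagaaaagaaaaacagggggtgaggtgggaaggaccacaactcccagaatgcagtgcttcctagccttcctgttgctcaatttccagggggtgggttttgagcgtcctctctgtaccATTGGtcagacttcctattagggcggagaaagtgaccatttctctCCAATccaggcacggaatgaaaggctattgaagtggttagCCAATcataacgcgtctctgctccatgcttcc
Mcm5, chr8:75109259-75109508, plus strand: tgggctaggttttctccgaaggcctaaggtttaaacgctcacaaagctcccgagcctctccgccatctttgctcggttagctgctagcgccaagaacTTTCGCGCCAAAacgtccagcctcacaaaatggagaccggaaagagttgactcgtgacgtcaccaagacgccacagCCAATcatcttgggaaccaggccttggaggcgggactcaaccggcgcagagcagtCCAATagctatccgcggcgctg
Mcm6, chr1:128359706-128359955, minus strand: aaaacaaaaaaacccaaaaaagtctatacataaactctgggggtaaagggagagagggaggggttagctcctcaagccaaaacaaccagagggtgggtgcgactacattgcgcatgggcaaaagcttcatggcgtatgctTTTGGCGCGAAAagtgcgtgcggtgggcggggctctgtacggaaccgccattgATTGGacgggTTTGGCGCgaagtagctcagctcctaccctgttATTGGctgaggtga

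The E2F letters lay 153 and 149 bases before the start of *Mcm5*, as overlapping sites, and 110, 106 and 47 bases before the start of *Mcm6*, where the first pair overlapped. They were in neither the *Mcm2* nor the *Mcm3* window. CCAAT boxes were in all 4 windows: 1 in *Mcm2*, 3 in *Mcm3*, and 2 each in *Mcm5* and *Mcm6*. The windows of *Cdt1* and *Tk1*, which were also lower, held none of the searched letters. So the called ring genes and *Mcm6* were not set apart by these letters. An E2F site also lay 165 bases before 1 start of *Mcm7*, while its other window held none, and no window was found for *Mcm4*. Only these exact letters were searched, so a window without them may hold other forms of a site. Over all windows found, an E2F site was present for 10 of 40 replication genes (25%), against 3.06% of the 13664 genes of the table with a window. The helicase and origin class held 6 of these, among the 12 of its genes with a window. A CCAAT box was present for 27 of 40 (67.5%, against 39.2%) and the CHR letters for 6 of 40 (15%, against 14.6%).

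Across the 49 genes the libraries labelled Rxra-KO were lower far more often than higher, and few single genes passed the test. By limma with a mean-variance trend on log2(value + 1), 5 genes were called lower at an adjusted p under 0.05 and a log2 fold change of at least 0.6 in size, namely *Mcm2*, *Mcm3*, *Mcm5*, *Cdt1* and *Tk1*. Over all 18364 genes 178 were called lower, or 0.969%. None of the 49 was called higher, against 243 genes or 1.32% of the table, and none was higher at an unadjusted p under 0.05 by limma, where 5.68% of all genes were. At that level 12 of the 49 were lower, against 4.42% of all genes. Neither edgeR's quasi-likelihood test nor DESeq2 called any of the 49 higher. The log2 fold change was negative for 40 of 49 genes (81.6%), against 48.9% of all genes, and its median was −0.47 (range −2.08 to 0.86), against 0.02 over all genes. Both libraries labelled Rxra-KO were below both labelled WT for 19 of the 49 genes (38.8%), against 19.3% of all genes. They were both above for 1 gene, *Gins2*, where 18.8% of all genes had that order, and the groups overlapped for the other 29. The plot of log2 fold changes by class gives every gene with its interval.

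**Figure D1:**
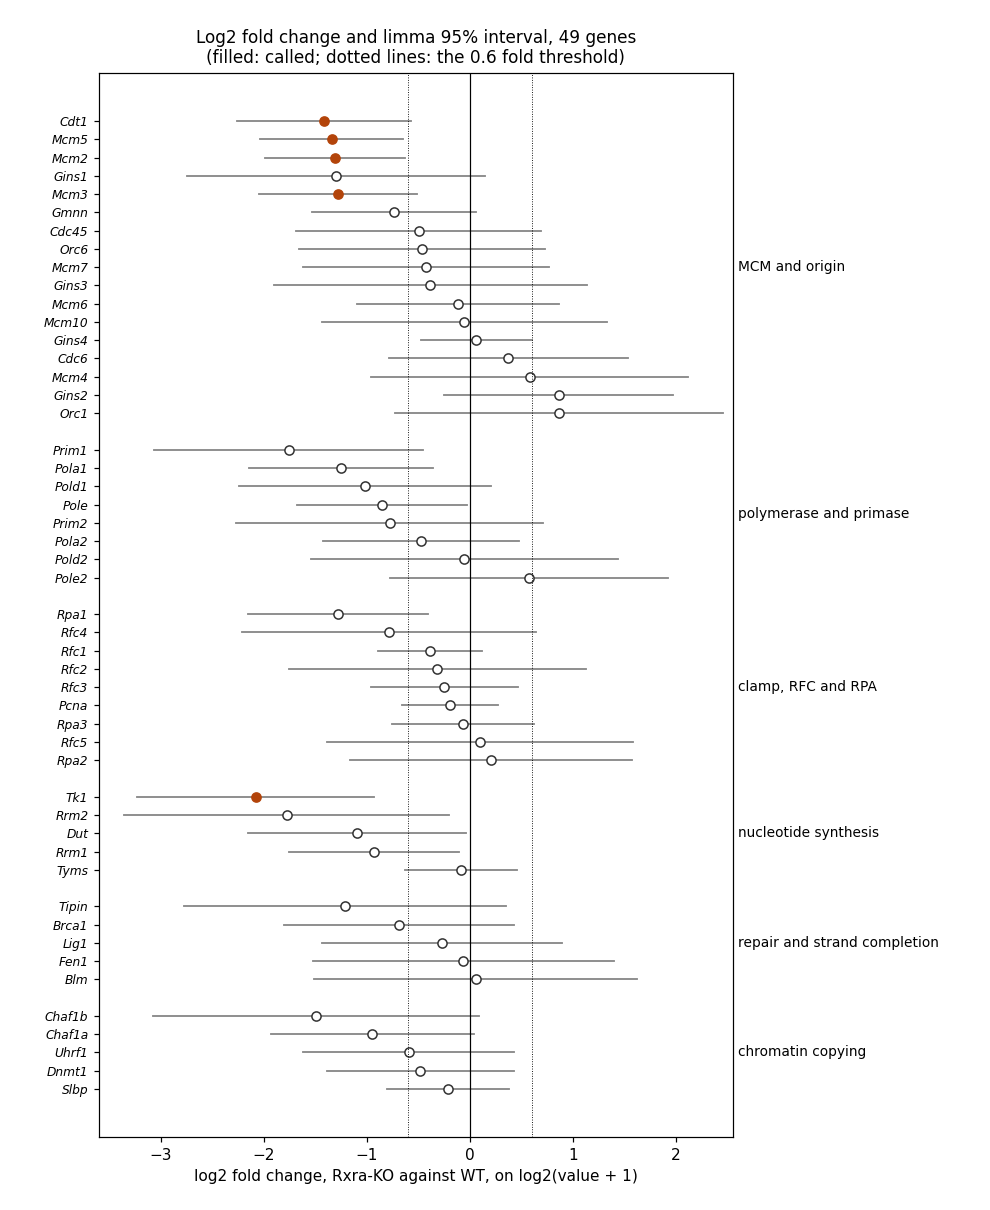
Log2 fold change of the 49 replication genes in the libraries labelled Rxra-KO against those labelled WT (horizontal axis, on log2(value + 1)), with limma's 95% interval, sorted within each class; filled points are the 5 called genes and dotted lines the 0.6 threshold. Of the 49 points 40 lie left of 0, most intervals cross 0, and the called genes are 4 of the helicase and origin class and *Tk1*.

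In the helicase and origin class the line between called and uncalled genes ran through the Mcm2 to Mcm7 ring. The subunits of the ring act together in equal numbers, and 3 of the 6 passed the test. *Mcm2* had values of 68.9 and 94.9 in WT replicates 1 and 2 and of 30.9 and 33.3 in Rxra-KO replicates 1 and 2 (log2 fold change −1.31, SE 0.35, limma adjusted p = 0.0117). The 2 groups did not overlap, and the libraries labelled WT were the more spread pair (SD 18.4, against 1.70 in those labelled Rxra-KO). *Mcm5* had 61.3 and 101 against 39.9 and 23.3 (log2 fold change −1.34, SE 0.35, limma adjusted p = 0.0111). *Mcm3* had 47.7 and 70.0 against 30.9 and 17.4 (log2 fold change −1.28, SE 0.39, limma adjusted p = 0.0499), which made it the gene of the whole table with the largest p still inside the threshold. Neither *Mcm3* nor *Mcm5* overlapped between groups, though the nearest WT and Rxra-KO values lay closer than for *Mcm2*.

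The other 3 ring genes rested on few reads and had wide intervals. *Mcm4* had 1 and 6 reads in the libraries labelled WT and 6 and 4 in those labelled Rxra-KO, with a log2 fold change of 0.58 (95% interval −0.96 to 2.12). *Mcm6* had 8 and 30 against 9 and 25 reads (−0.12, interval −1.10 to 0.87), and *Mcm7* 11 and 11 against 13 and 5 reads (−0.42, interval −1.62 to 0.77). All 3 overlapped between groups. The intervals of *Mcm4* and *Mcm6* did not reach −1.28, the smallest fitted change among the 3 called ring genes (*Mcm3*), and that of *Mcm7* did. The interval of *Mcm3* itself ran from −2.05 to −0.51 and overlapped all 3. Differences between ring genes were not tested, and exons of *Mcm7* overlap *Ap4m1* and *Cops6* on the opposite strand, whose reads the counting could not tell apart without strand.

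Among the factors that load and start the helicase, only *Cdt1*, the loader that is destroyed or blocked once S phase begins, was called. It had values of 44.7 and 49.4 in the libraries labelled WT against 12.8 and 22.3 in those labelled Rxra-KO (log2 fold change −1.42, SE 0.43, limma adjusted p = 0.0469). The WT pair were close to each other and well above both libraries labelled Rxra-KO. *Gmnn*, which encodes geminin, the protein that blocks Cdt1, also had both Rxra-KO values (24.8 and 25.3) below the WT values (31.0 and 58.0), at −0.74 with an adjusted p of 0.558 by limma. *Cdc6*, the partner of Cdt1 in loading, had 2 reads in WT replicate 1, 33 in WT replicate 2, 11 in Rxra-KO replicate 1 and 15 in Rxra-KO replicate 2. The WT libraries thus lay on either side of the others, and the sign depended on the scale: the log2 fold change was 0.37, while the mean value was 20.1 in the libraries labelled WT and 16.4 in those labelled Rxra-KO.

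The 4 GINS genes, whose products bind the ring as 1 complex, did not share a direction. *Gins4* was nearly level at 140 and 106 against 126 and 129 (log2 fold change 0.06, 95% interval −0.47 to 0.60). *Gins1* had 9.84 and 13.6 against 3.76 and 4.47, the Rxra-KO values resting on 2 and 4 reads (−1.30, limma adjusted p = 0.583). *Gins2* was the 1 gene of the 49 with both Rxra-KO values, 18.8 and 21.4, above both WT values, 9.84 and 11.4 (0.86, interval −0.25 to 1.97, limma adjusted p = 0.682). Its exons overlap *Gse1* on the opposite strand, so these counts are uncertain. *Gins3* had 2 to 10 reads in each library and overlapped between groups. Of the remaining origin genes, *Cdc45*, which joins the active helicase, had 8.33 and 27.7 against 9.79 and 11.4, and *Mcm10*, *Orc1* and *Orc6* had 0 to 12 reads in each library. Over the class, 12 of 17 genes had a negative log2 fold change (all genes 48.9%) and 4 were called lower (all genes 0.969%). The median was −0.42.

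**Figure D2:**
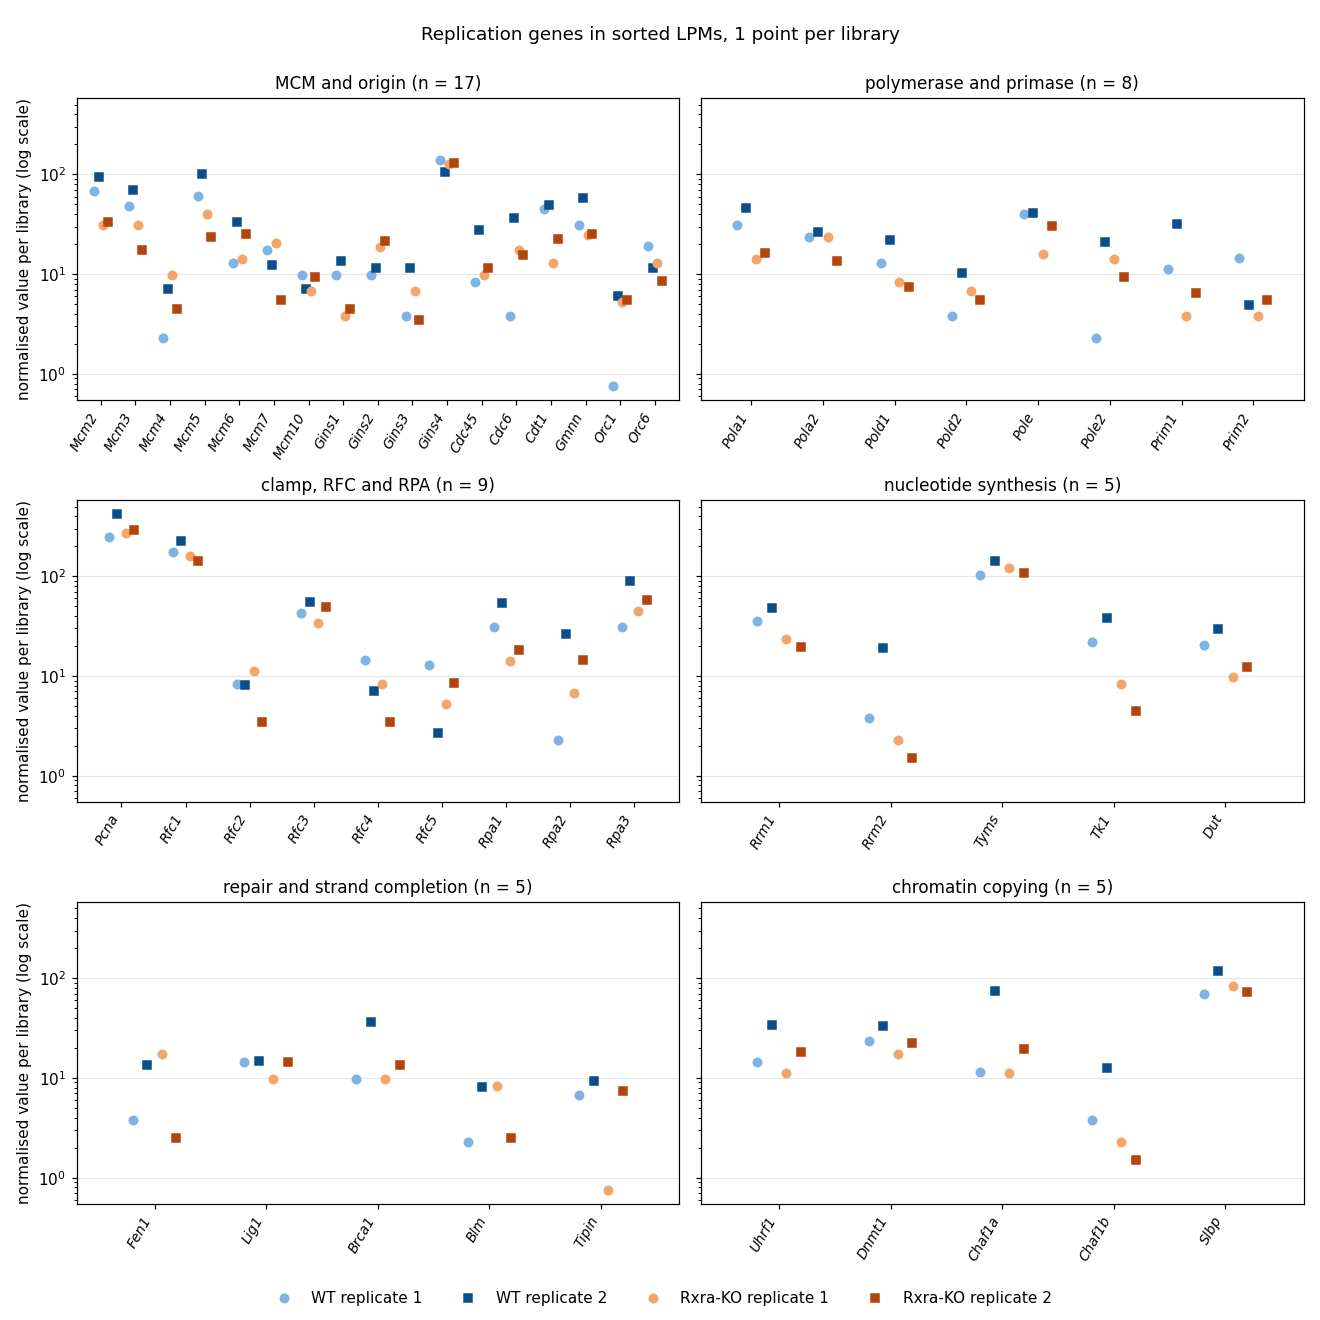
Normalised value of each of the 49 replication genes in each library (vertical axis, log scale), by class; circles are replicate 1 and squares replicate 2, blue for the libraries labelled WT and orange for those labelled Rxra-KO. The dark blue square, WT replicate 2, is the highest of the 4 points for 37 of the 49 genes.

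The polymerase and primase class leaned lower without a call: 7 of 8 genes had a negative log2 fold change (median −0.81). Both Rxra-KO libraries were below both WT libraries for 5 (62.5%, against 19.3% of all genes). An unadjusted p under 0.05 by limma was found for 3, all lower, where 4.42% of all genes were lower at that level. These 3 were *Prim1*, *Pola1* and *Pole*. *Prim1*, the catalytic subunit of the primase that lays down RNA primers, had 11.4 and 32.0 in the libraries labelled WT and 3.76 and 6.46 in those labelled Rxra-KO, where it rested on 2 and 6 reads (log2 fold change −1.76, SE 0.66, limma adjusted p = 0.201). *Pola1*, the catalytic subunit of polymerase alpha that extends those primers, had 31.0 and 46.1 against 14.3 and 16.4 (−1.25, SE 0.46, limma adjusted p = 0.169). In both genes each group kept to its own side, and the WT libraries were the more spread pair. *Pola2*, the second subunit of polymerase alpha, had 23.5 and 26.6 against 23.3 and 13.4, so that 1 library labelled Rxra-KO was level with WT (−0.47, limma adjusted p = 0.864). *Pole*, the catalytic subunit of the leading-strand polymerase epsilon, had 40.1 and 40.7 against 15.8 and 30.3 (−0.85, limma adjusted p = 0.467). Its small subunit gene *Pole2* had 1 read in WT replicate 1, 19 in WT replicate 2 and 9 in each library labelled Rxra-KO, a log2 fold change of 0.57 although the group means were close at 11.7 and 11.9. *Pold1*, the catalytic subunit of polymerase delta, had 12.9 and 22.2 against 8.28 and 7.45, while *Pold2* and *Prim2* rested on 2 to 9 reads per library.

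Among clamp, clamp loader and RPA genes, none was called, and the pair with the most reads had the narrowest intervals. *Pcna*, the sliding clamp, had 246 and 423 in WT replicates 1 and 2 and 272 and 291 in Rxra-KO replicates 1 and 2. Both Rxra-KO libraries thus lay between the WT ones, and the log2 fold change was −0.20 (95% interval −0.66 to 0.27, limma adjusted p = 0.897). *Rfc1*, the large subunit of the clamp loader, had 175 and 224 against 159 and 144, a small difference with no overlap (−0.39, interval −0.89 to 0.11, limma adjusted p = 0.682). The intervals of *Pcna* and *Rfc1* did not reach −1.28, the smallest fitted change among the called genes (*Mcm3*). The interval of *Mcm3* itself, −2.05 to −0.51, overlapped both, and differences between these genes were not tested. Of the small loader subunits, *Rfc3* had 43.2 and 54.8 against 33.9 and 49.2, and *Rfc2*, *Rfc4* and *Rfc5* had 2 to 9 reads in each library; exons of these last 3 overlap another gene of the table.

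The 3 subunits of RPA, the complex that coats single-stranded DNA, gave 3 different pictures. *Rpa1* had 31.0 and 53.7 in the libraries labelled WT and 14.3 and 18.4 in those labelled Rxra-KO (log2 fold change −1.28, SE 0.44, limma adjusted p = 0.13), with no overlap. *Rpa2* had 1 and 24 reads against 4 and 14 reads, with the WT libraries at both ends (0.20, interval −1.16 to 1.57), and its mean value was 14.4 in the libraries labelled WT and 10.6 in those labelled Rxra-KO. *Rpa3* had 31.0 and 90.6 against 44.4 and 58.1 (−0.06, interval −0.75 to 0.63), again with the WT libraries outermost. No difference between these subunits was tested. The class had 7 of 9 negative log2 fold changes, a median of −0.25 and no call.

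All 5 nucleotide synthesis genes had a negative log2 fold change (median −1.10). For 4 of them (80%, against 19.3% of all genes) both Rxra-KO libraries were below both WT libraries. The same 4 had an unadjusted p under 0.05 by limma, where 4.42% of all genes were lower at that level. *Tk1*, the S phase thymidine kinase of the salvage route, was called and had the most negative change of the 49 genes: 22.0 and 38.5 in the libraries labelled WT against 8.28 and 4.47 in those labelled Rxra-KO, or 14 and 35 against 5 and 4 reads (log2 fold change −2.08, SE 0.58, limma adjusted p = 0.0233). Even its lower WT value stood well above the higher Rxra-KO one. Exons of *Tk1* overlap *Afmid* on the opposite strand. *Rrm1* and *Rrm2* encode the large and small subunits of ribonucleotide reductase, which makes deoxynucleotides. *Rrm1* had 35.6 and 48.3 against 23.3 and 19.4 (−0.93, limma adjusted p = 0.372). *Rrm2* had 2 and 17 reads in the libraries labelled WT and 1 read in each library labelled Rxra-KO (fitted log2 fold change −1.78, limma adjusted p = 0.374); both Rxra-KO libraries were under the 3 reads taken as the limit of counting, and the WT mean rested mainly on replicate 2. The summed reads, 19 against 2, give a ratio of 9.95 between the groups for their depth, with an exact 95% counting interval of 2.40 to 88.1 that leaves out the spread between libraries. *Dut*, the dUTPase that keeps uracil out of DNA, had 20.4 and 29.8 against 9.79 and 12.4 (−1.10, limma adjusted p = 0.455). *Tyms*, thymidylate synthase, departed from the rest of its class: its 104 and 144 in the libraries labelled WT enclosed the 121 and 109 of those labelled Rxra-KO (−0.09, interval −0.63 to 0.45). *Tyms* and *Pcna* each have a named pseudogene copy, with which reads could have been shared.

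None of the 5 repair and strand completion genes had groups that did not overlap, where 19.3% of all genes lay below and 18.8% above. With 5 genes this cannot be set apart from those shares. None of the 5 was called (median −0.27, 4 of 5 negative). *Brca1*, which acts in repair of broken and stalled forks, had 9.84 and 36.3 in the libraries labelled WT and 9.79 and 13.4 in those labelled Rxra-KO, so that WT replicate 1 was level with the libraries labelled Rxra-KO (log2 fold change −0.69, limma adjusted p = 0.791). *Lig1*, the ligase that seals Okazaki fragments, had 14.4 and 14.6 against 9.79 and 14.4 (−0.27, interval −1.43 to 0.90). The flap nuclease gene *Fen1*, the helicase gene *Blm* and the fork protection gene *Tipin* had 0 to 12 reads in each library, where no difference of the size seen for the called genes could have passed.

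All 5 chromatin copying genes had a negative log2 fold change (median −0.59) and none was called. *Chaf1a* and *Chaf1b* encode subunits of CAF-1, which places histones on new DNA. *Chaf1a* had 11.4 in WT replicate 1 and 74.3 in WT replicate 2, against 11.3 and 19.4 in Rxra-KO replicates 1 and 2 (log2 fold change −0.95, limma adjusted p = 0.524). WT replicate 1 was level with Rxra-KO replicate 1, and WT replicate 2 stood alone. Exons of *Chaf1a* overlap *Ubxn6* on the opposite strand, so these counts are uncertain. *Chaf1b* had 2 and 11 reads against 1 read in each library labelled Rxra-KO, again under the limit of counting (−1.50, limma adjusted p = 0.541). Its summed reads, 13 against 2, give a ratio of 6.81, with a counting interval of 1.54 to 62.2. *Dnmt1*, which copies DNA methylation, had 23.5 and 33.1 against 17.3 and 22.3, a small step with no overlap (−0.48, interval −1.39 to 0.43). *Uhrf1*, which guides Dnmt1 to new DNA, had 14.4 and 34.2 against 11.3 and 18.4, with overlap (−0.59, interval −1.62 to 0.43). *Slbp*, which binds histone mRNAs, was nearer level at 68.9 and 118 against 83.6 and 72.0 (−0.21, interval −0.81 to 0.38).

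The same library recurred as the high one across classes. WT replicate 2 was above WT replicate 1 for 41 of the 49 genes (83.7%, median difference 0.72 on the log2 scale), where 50.2% of all genes had that order, and it was the highest of the 4 libraries for 37 genes (75.5%, against 25.6% of all genes). The libraries labelled Rxra-KO showed no such split: replicate 2 was above replicate 1 for 27 of 49 (55.1%, median difference 0.04). Summed over the 49 genes, the value was 1502 in WT replicate 1, 2357 in WT replicate 2, 1335 in Rxra-KO replicate 1 and 1346 in Rxra-KO replicate 2. WT replicate 1 therefore lay nearer to the libraries labelled Rxra-KO than to its own replicate.

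Leaving out each WT library in turn gave a negative median both times, of different size. Without WT replicate 1 the median log2 fold change of the 49 was −0.86, 45 were negative, and both Rxra-KO libraries lay below the remaining WT library for 37 (75.5%, against 34.3% of all genes). Without WT replicate 2 the median was −0.27, 30 were negative, and the count below was 25 (51.0%, against 36.5% of all genes). None of the 5 calls was left without WT replicate 2, although each of the 5 genes kept a negative log2 fold change there. The calls were 4 without WT replicate 1 (*Mcm2*, *Mcm5*, *Tk1* and, newly, *Chaf1a*), 3 without Rxra-KO replicate 1 (*Mcm3*, *Mcm5* and *Tk1*) and 1 without Rxra-KO replicate 2 (*Cdt1*). Calls were fewer over all genes too with any 1 library left out, so fewer calls were not particular to the 49 genes. Between the leave-outs of WT replicates 1 and 2, the class medians went from −1.07 to −0.27 for helicase and origin genes, from −0.84 to −0.74 for polymerases and primase, from −0.57 to −0.21 for clamp, loader and RPA, from −1.36 to −0.75 for nucleotide synthesis, from −0.87 to 0.20 for repair, and from −1.19 to 0.00 for chromatin copying. The median of the polymerase and primase genes thus moved least with the WT library used, and those of the repair and chromatin genes were not below 0 without WT replicate 2. Single polymerase and primase genes moved more, and in both directions. Between the same leave-outs *Pole2* went from −0.81 to 1.95, *Prim2* went from −0.08 to −1.47, and the negative genes of the class went from 8 to 6. *Chaf1a* was at −2.25 without WT replicate 1 (limma adjusted p = 0.00175) and at 0.36 without WT replicate 2. With a WT library left out, the WT arm is 1 library that is assumed to vary like the others, so this p and that call of *Chaf1a* rest on WT replicate 2 alone, with 68 reads where WT replicate 1 had 7. In all, 24 of the 49 genes were negative whichever of the 4 libraries was left out (against 24.7% of all genes), and 1, *Gins2*, was positive each time (26.1% of all genes).

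**Figure D3:**
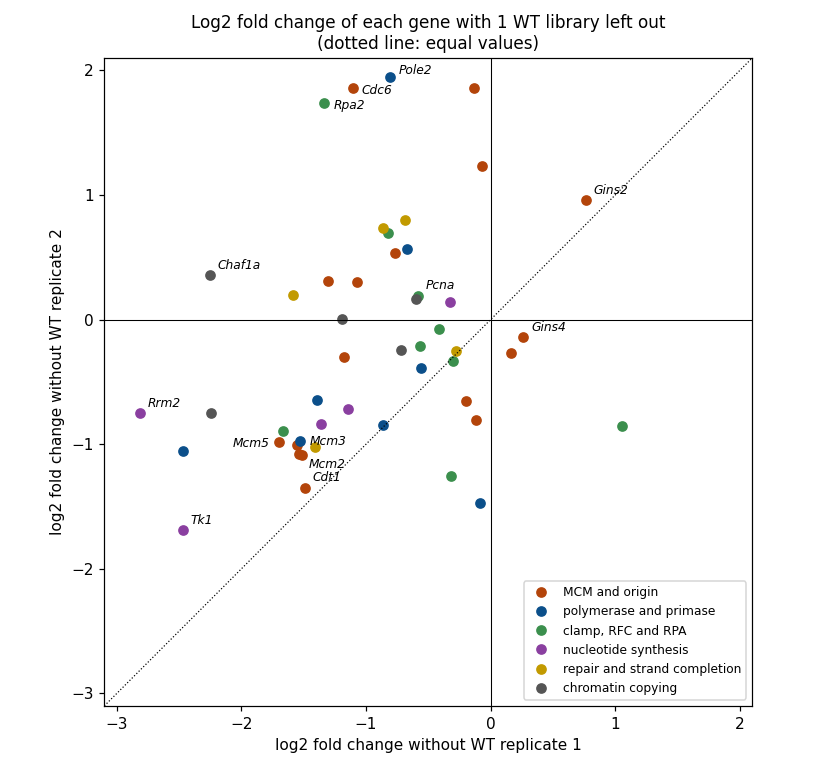
Log2 fold change of each of the 49 replication genes without WT replicate 1 (horizontal axis) and without WT replicate 2 (vertical axis), coloured by class, with 13 genes named; the dotted line marks equal values. Most points lie left of 0 and above the line; *Tk1*, *Cdt1*, *Mcm2*, *Mcm3* and *Mcm5* are negative on both axes, and *Chaf1a*, *Cdc6*, *Rpa2* and *Pole2* are negative on the horizontal axis only.

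Genes of the later cell cycle moved with the same library. *Mki67*, the nuclear protein of dividing cells, had 275 and 868 reads in the libraries labelled WT and 84 and 87 in those labelled Rxra-KO (log2 fold change −2.56, limma adjusted p = 3.35e-18). *Top2a*, the topoisomerase that untangles replicated chromosomes, had 46 and 226 against 15 and 31 reads (−2.24, limma adjusted p = 6.82e-08). Of the 10 genes in this reference list of dividing cells 4 were called lower and none higher (all genes 0.969% and 1.32%). WT replicate 2 exceeded WT replicate 1 in all 10 and was highest in 9. The median log2 fold change of these genes was −0.91 (−1.73 without WT replicate 1, −0.31 without WT replicate 2). Their summed value was 681 and 1658 in WT replicates 1 and 2 and 306 and 268 in Rxra-KO replicates 1 and 2. Markers of other cells in the cavity were summed by cell type. There were 5 to 14 reads per library for 4 B cell genes, 2 to 10 for 2 neutrophil genes and 9 to 13 for 3 mast cell genes. The B cell, neutrophil, mast cell, T cell and mesothelial lists held 4 genes each. Genes not counted here were not found among the 18364, and *S100a8* and *S100a9* of the neutrophil list were among them. The 2 T cell genes had 20 and 25 reads in the libraries labelled WT and 25 and 27 in those labelled Rxra-KO. The 3 mesothelial genes had 5 and 7 against 6 and 29 reads, and all 3 had a positive log2 fold change. Of the 4 B cell genes 2 had a negative log2 fold change, while *Ms4a1* had 0 and 1 against 5 and 5 reads. The 3 dendritic cell genes (*Flt3*, *Zbtb46* and *Xcr1*) had 12 and 19 reads in the libraries labelled WT and 16 and 29 in those labelled Rxra-KO. With *Cd209a*, which is also among the small macrophage markers above, the dendritic list came to 26 and 32 against 59 and 109 reads, so most of that rise was this 1 gene. What part any of these play in the replication genes was not tested.

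Replication genes outside the 49 gave a single call. A list of 61 further genes (other licensing and firing factors, further fork, nucleotide, repair and chromatin genes) held 1 called lower, *Mthfd1*, a folate enzyme that supplies carbon units for nucleotides, and none called higher (all genes 0.969% and 1.32%). *Mthfd1* had 55.3 and 74.3 in the libraries labelled WT and 18.8 and 30.3 in those labelled Rxra-KO (log2 fold change −1.39, limma adjusted p = 0.0173). The log2 fold change was negative for 36 of the 61 (59.0%, against 48.9% of all genes) with a median of −0.10, both Rxra-KO libraries were below both WT libraries for 20 (32.8%, against 19.3%), and WT replicate 2 was highest for 17 (27.9%, near the 25.6% of all genes). Of these genes, the 12 of repair and checkpoint had the lowest median, −0.63, with 7 below WT without overlap (58.3%, against 19.3% of all genes), and the 16 of polymerase and fork the highest, 0.07.

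Genes that control entry into S phase showed a single call of large size. *Ccnd1*, which encodes cyclin D1, the partner of Cdk4 and Cdk6 in G1, had 113 and 213 reads in the libraries labelled WT and 13 and 15 in those labelled Rxra-KO (log2 fold change −3.42, limma adjusted p = 3.35e-18). Its WT and Rxra-KO values were far apart, and both Rxra-KO libraries were alike. The other 20 genes of this list of E2F, retinoblastoma and G1/S cyclin genes were not called, and the median of all 21 was −0.16. Over all genes 0.969% were called lower and 1.32% higher.

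Depth set which of the 49 genes could be called at all. A mean of fewer than 10 reads per library was found for 17 genes, 10 to 100 for 29, and 100 or more for 3 (*Pcna*, *Rfc1* and *Gins4*). The log2 fold change needed to pass the adjusted threshold had a median of 1.92 over the 49 genes and ran from 0.78 to 2.66. For most genes even a halving could therefore not have passed at this depth. For a single gene, 2 libraries a group leave the exact permutation test a smallest p of 0.333, and the calls use a spread that limma pools over genes of like level. Without its mean-variance trend limma called 0 of all 18364 genes and 0 of the 49 (12 of the 49 at an unadjusted p under 0.05). DESeq2 on the recovered reads called none of the 49 (8 at an unadjusted p under 0.05), and edgeR called 5.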

How the data were processed

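RNA from double-sorted LPMs (F4/80+, MHCII-negative, CD102+) was amplified by SMART-Seq v4 (low input), without strand or molecular identifiers, and sequenced on a NextSeq-500. The authors quantified transcripts with Kallisto 0.43.0, summarised them by gene, normalised by TMM and deposited 1 table of normalised signal, as CPM with 0.5 reads added to each count. The reference build that the methods name is human, although the symbols are mouse, and this was not resolved. The study left out samples that did not group with their condition. The columns are numbered otherwise than the sample titles, and the titles' replicate numbers are used here.

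From the deposited signal, whole reads were recovered for 100% of values (tolerance 0.01), at 652542 and 947372 reads in WT replicates 1 and 2 and 629030 and 1047021 in Rxra-KO replicates 1 and 2. Main test: limma 3.58.1 in R 4.3.3 with trend on log2(value + 1), fold changes on that scale, Benjamini-Hochberg over 18364 genes, called at adjusted p under 0.05 and a log2 fold change of at least 0.6. A filter at a value of 1 in 2 libraries removed 0 genes. edgeR 4.0.16 on the recovered reads called 446 genes, against 421 by limma. Counting limit: 3 reads in a library. Promoter windows came from RefSeq and overlaps from GENCODE M21.

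The 49 genes and all lists were chosen with earlier results of these data known; chromatin copying was split off as a class of its own. Library values were given for called genes, *Mcm2* to *Mcm7*, in each class the 2 lowest and 2 highest log2 fold changes among genes whose mean value was 10 or more, and genes under the counting limit in both libraries of a group; other genes named were chosen after their values were seen. *Adgre1* was matched to its older symbol *Emr1* through RefSeq synonyms after the values were seen. T cell (20 to 27 reads per library), mesothelial (5 to 29) and erythroid (1 to 12, from 1 of the 3 listed genes) markers were also summed.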

Additional observations from a re-analysis of the deposited data

How the results depend on the processing

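No alternative tried called any of the 49 genes higher. The number called lower, 5 in the main analysis, was 3 with a pseudocount of 5 and 3 with scaling by library size; it was 0 for limma without trend, 0 for DESeq2 (which gave 16 of the 49 an adjusted p) and 0 at an adjusted p under 0.01, with 12, 8 and 12 of the 49 at an unadjusted p under 0.05. Leaving out 1 library gave 0 (without WT replicate 2) to 4 (without WT replicate 1), with 3 without Rxra-KO replicate 1 and 1 without Rxra-KO replicate 2. edgeR called 5, with *Chaf1a* in place of *Cdt1*. *Mcm5* and *Tk1* were called in 10 of the 14 alternatives that refit the test, *Mcm2* in 9, *Mcm3* in 6 and *Cdt1* in 5, with adjusted p from 0.00438 to 0.550, 0.00685 to 0.472, 0.00508 to 0.520, 0.0302 to 0.607 and 0.0328 to 0.606. Both Rxra-KO libraries were below WT in 25 genes without WT replicate 2 (51.0%, against 36.5% of all genes). Without WT replicate 1 the count was 37 (75.5%, against 34.3% of all genes). The 1 further replication gene called lower became 0 for limma without trend, 0 for DESeq2, 0 at an adjusted p under 0.01, 2 for edgeR, and 0 to 2 with a library left out. The count for all genes was 246 by DESeq2 and 236 without WT replicate 2, against 421. The causes were not tested.

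Signs turned only for genes that were not called. With another tool or pseudocount, *Cdc6* turned to −0.40 by edgeR and −0.35 by DESeq2, *Pole2* to −0.11 and −0.041, and *Rpa2* to −0.50 and −0.50, and to −0.0036 with a pseudocount of 5. With 1 library left out, the log2 fold change ran from −0.068 to 1.23 for *Mcm4*, −0.76 to 0.53 for *Mcm6*, −1.29 to 0.44 for *Mcm7*, −1.11 to 1.86 for *Cdc6*, −0.81 to 1.95 for *Pole2*, −1.33 to 1.74 for *Rpa2*, −0.82 to 0.69 for *Rpa3*, −0.32 to 0.15 for *Tyms*, −1.58 to 0.20 for *Brca1*, −1.19 to 0.0045 for *Uhrf1*, −2.25 to 0.36 for *Chaf1a* and −0.60 to 0.17 for *Slbp*. It also crossed 0 for *Pcna* (−0.58 to 0.19), *Cdc45* (−1.31 to 0.31), *Gins4* (−0.14 to 0.26) and *Rfc3* (−0.51 to 0.015), and in all for 24 of the 49 genes.

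A fit with the replicate number as a block (replicate block) called 5 of the 49 lower, the same genes, and 540 genes in all. With 2 pairs the numbers were taken as names only: same-numbered libraries deviated together with a correlation of 0.0629 over 10049 genes and 0.307 over 34 of the 49. Depth limits all of this, since 17 of the 49 genes had a mean under 10 reads. Amplified copies of a molecule were counted as separate reads, so the counting limit covers counting error only.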
